A study of Homo sapiens with 9 samples.

Results

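The mRNAs described here are those of 7 genes around glucuronidation in LAPC4 cells, chosen by gene symbol from the 60325 gene rows of each library. They are UGT2B28, the enzyme gene targeted in the study, its paralogs UGT2B11 and UGT2B15, the related UGT8, and UGDH, UGP2 and SLC35D1, which supply UDP-glucuronic acid. LAPC4 is an androgen-responsive human prostate cancer cell line. RNA sequencing at day 30 gave 9 libraries in 3 groups of 3. Rescue cells are labelled as overexpressing UGT2B28 in cells labelled as its knockdown, with G418 at 1 mg/mL as the selection drug given for them. Knockdown-labelled cells are labelled as targeted at UGT2B28, with puromycin at 3 ug/mL. Control cells were titled NT, with no drug given. The labels do not say by what construct the knockdown was made, whether the cells were clones or pools, or whether the replicates are separate cultures. The p-values therefore cover library-to-library spread alone, and that spread may be technical. An effect of the drug and one of the construct cannot be told apart.

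UDP-glucuronosyltransferases (UGTs) are enzymes of the endoplasmic reticulum that join glucuronic acid from UDP-glucuronic acid to small molecules and so make them water soluble and ready for export. In prostate cells the UGT2B enzymes are best known for conjugating androgens. The donor is made in the cytosol: UGP2 forms UDP-glucose from glucose 1-phosphate, UGDH oxidises UDP-glucose to UDP-glucuronic acid, and SLC35D1 carries the product into the endoplasmic reticulum. UGT8 belongs to the same superfamily but uses UDP-galactose, which it adds to ceramide on the way to the galactolipids of myelin.

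The 3 UGT2B genes lie in a cluster on chromosome 4 (GRCh38), UGT2B28 at 69280499 to 69295050 on the plus strand, UGT2B11 at 69199951 to 69214731 and UGT2B15 at 68646630 to 68670628, both on the minus strand. The coding sequence of UGT2B28 is 97.0% identical to that of UGT2B11, with 47 different bases among 1590, and 83.9% identical to that of UGT2B15. The counts of the 3 genes can be set beside each other only where reads tell them apart, so the stretches of 60 coding bases within 1 exon that differ most and least between UGT2B28 and UGT2B11 are shown, from GENCODE 29 transcripts. In the first, positions 34 to 93 of the coding sequence in exon 1, capitals mark bases that differ from UGT2B28.
UGT2B28 at chr4:69280534-69280593, plus strand: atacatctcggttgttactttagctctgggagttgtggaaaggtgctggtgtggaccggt
UGT2B11 at chr4:69214630-69214689, minus strand: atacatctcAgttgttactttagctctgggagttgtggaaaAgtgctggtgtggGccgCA
UGT2B15 at chr4:68670526-68670585, minus strand: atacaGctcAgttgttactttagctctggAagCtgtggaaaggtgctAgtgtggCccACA
UGT2B11 differs from UGT2B28 at 5 and UGT2B15 at 9 of these 60 bases. In the second stretch, the next 60 bases (positions 94 to 153), UGT2B11 is identical to UGT2B28 and UGT2B15 differs at 3 bases.
UGT2B28 at chr4:69280594-69280653, plus strand: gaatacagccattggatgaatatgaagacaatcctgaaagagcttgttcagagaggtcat
UGT2B11 at chr4:69214570-69214629, minus strand: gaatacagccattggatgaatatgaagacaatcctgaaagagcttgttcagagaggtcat
UGT2B15 at chr4:68670466-68670525, minus strand: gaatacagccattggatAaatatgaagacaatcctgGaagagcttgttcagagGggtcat
Of the 1177 stretches of 60 bases compared in this way, 12.5% were identical in UGT2B28 and UGT2B11, and the longest identical run was 110 bases, below the read length of 150 bases named for the libraries. Among stretches of 100 transcript bases, 5.71% of those of UGT2B28, 17.4% of those of UGT2B11 and 12.7% of those of UGT2B15 also occurred in another gene, and those of UGT2B15 all lay in UGT2B17. None occurred elsewhere for UGT8, UGDH, UGP2 or SLC35D1. Of the 1734 stretches of UGT2B28, 17 occurred in UGT2B11, and none of those of UGT2B15 occurred in either gene. Other partners were mainly UGT2B24P and UGT2B25P for UGT2B28, and AC111000.4 and UGT2B25P for UGT2B11. Each file tallies apart the reads aligned to several places (7.67% to 11.6% of its counts) and ambiguous reads (2.36% to 3.14%). Whether such reads were also counted for a UGT2B gene is not given. The split between the 3 UGT2B genes remains uncertain where their reads are alike.

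Counts assigned to genes summed to 8132206 to 14185252 per library. Luminal prostate markers were abundant (KLK3, the gene of prostate-specific antigen, averaged 1299 CPM in rescue, 1091 in knockdown-labelled and 921 in control libraries; CPM are counts per 1000000, scaled by TMM), and the luminal markers summed to 5019 to 6152, 3415 to 6192 and 4086 to 5193 CPM in the same groups. The 3 basal markers summed to at most 3.71 CPM, the 2 endothelial ones to at most 0.696 and the 3 leukocyte ones to at most 10.4, with PTPRC at 0 counts in all 9 libraries. The fibroblast markers ran from 15.0 to 57.6 CPM in 8 libraries other than rescue library 3, which had 94.7 CPM. Knockdown library 3 stood apart from the other libraries of its label: it correlated with them at 0.931 and 0.936 (Pearson's r of log2 CPM across genes), against 0.979 to 0.985 for all other pairs within a group. The 13 mitochondrially encoded mRNAs took 4.41% to 6.18% of the counts in rescue libraries, 11.5%, 12.0% and 8.59% in knockdown-labelled libraries 1, 2 and 3, and 6.04% to 6.90% in control libraries.

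The plot of all libraries shows the level of each gene. UGT2B28, the steroid-conjugating enzyme, had 1139, 1062 and 539 raw counts in rescue libraries 1, 2 and 3, then 63, 70 and 28 in knockdown-labelled libraries and 44, 50 and 76 in control libraries. In bulk RNA, fewer cells with an mRNA and less of it per cell cannot be told apart. As CPM the values were 75.1, 92.9 and 53.6 in rescue, 8.48, 6.18 and 3.05 in knockdown-labelled and 5.12, 5.10 and 7.80 in control libraries. All 3 rescue values lay above the other 6, while the knockdown-labelled and control values overlapped. The mRNA counts therefore do not bear out the knockdown label, and after TMM scaling knockdown-labelled library 3 alone lay below every control. With library size alone, UGT2B28 stood at 6.72, 4.94 and 3.39 CPM in knockdown-labelled and 5.42, 5.39 and 8.10 CPM in control libraries. Knockdown-labelled libraries 2 and 3 then lay below every control, and the groups still overlapped.

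**Figure D1:**
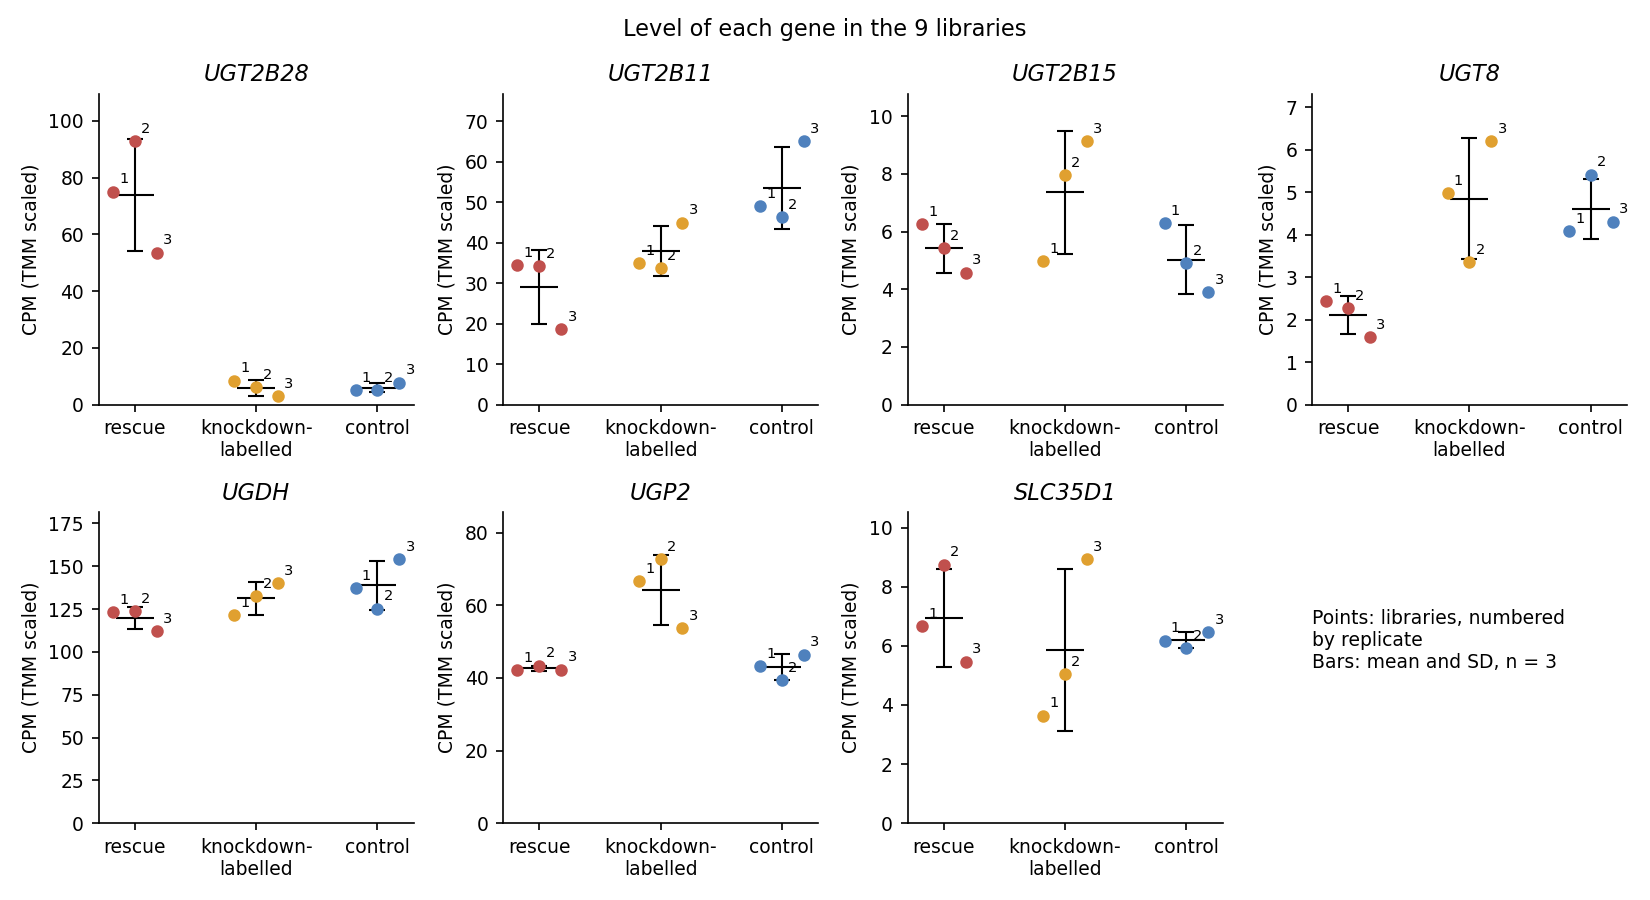
Level in CPM (TMM scaled, linear axes from 0) of the 7 genes in each library, with the mean and SD (n = 3) of rescue, knockdown-labelled and control groups. UGT2B28 reaches 53.6 to 92.9 CPM in rescue against at most 8.48 CPM elsewhere, UGT8 is at most 2.44 CPM in rescue against at least 3.35 elsewhere, and UGP2 is at least 53.6 CPM in knockdown-labelled libraries against at most 46.5 elsewhere.

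Compared per length, as RPKM (CPM per kilobase of exon), the genes held different ranks in the groups. In rescue libraries UGT2B28 had the highest mean (40.3 ± 10.7 RPKM), above UGDH (29.6 ± 1.58), UGT2B11 (12.4 ± 3.89), UGP2 (6.56 ± 0.101), UGT2B15 (2.61 ± 0.407), SLC35D1 (1.13 ± 0.270) and UGT8 (0.447 ± 0.0958; SD, n = 3 for each). In knockdown-labelled libraries UGDH came first (32.5 ± 2.35 RPKM), then UGT2B11 (16.2 ± 2.63), UGP2 (9.89 ± 1.49), UGT2B15 (3.54 ± 1.03), UGT2B28 (3.22 ± 1.49), UGT8 (1.03 ± 0.304) and SLC35D1 (0.951 ± 0.445; SD, n = 3). In control libraries the order was UGDH (34.3 ± 3.57 RPKM), UGT2B11 (22.9 ± 4.34), UGP2 (6.62 ± 0.545), UGT2B28 (3.28 ± 0.845), UGT2B15 (2.42 ± 0.578), SLC35D1 (1.00 ± 0.0441) and UGT8 (0.978 ± 0.152; SD, n = 3). UGT2B28 moved past UGT2B11 and UGP2 in rescue, but its range there (29.2 to 50.7 RPKM) overlapped that of UGDH (27.8 to 30.6). UGT2B28 and UGT2B15 overlapped in control and knockdown-labelled libraries, as did SLC35D1 and UGT8, so their order was not resolved. The dehydrogenase that makes the donor was thus the most abundant of the 7 per length in control cells.

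UGT2B11, whose enzyme is the closest in sequence to that of UGT2B28, was the main UGT2B mRNA of the control cells. It stood at 34.5, 34.2 and 18.6 CPM in rescue libraries 1, 2 and 3, at 35.0, 33.7 and 44.9 CPM in knockdown-labelled libraries and at 49.0, 46.3 and 65.1 CPM in control libraries. All 6 rescue and knockdown-labelled values lay below the lowest control. The antisense gene AC111000.4 overlaps exons of UGT2B11 and was not analysed here; without knowledge of strand, reads of the pair cannot be told apart. UGT2B15, which glucuronidates dihydrotestosterone and its metabolites, stood at 6.26, 5.42 and 4.57 CPM in rescue, 4.98, 7.94 and 9.14 CPM in knockdown-labelled and 6.29, 4.90 and 3.90 CPM in control libraries, and its groups overlapped.

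UGT2B28 took 64.8%, 70.1% and 69.8% of the summed UGT2B28, UGT2B11 and UGT2B15 counts in rescue libraries 1, 2 and 3, then 17.5%, 12.9% and 5.33% in knockdown-labelled libraries and 8.48%, 9.06% and 10.1% in control libraries. The mean share differed by 56.3 percentage points between rescue and knockdown-labelled libraries and by 59.0 between rescue and control (exact permutation test, two-sided, p = 0.1 for each, the smallest that 3 against 3 allows; 0.15 adjusted over the 3 comparisons made). Rescue libraries did not overlap with either group. Between knockdown-labelled and control libraries the mean difference was 2.69 points (exact permutation p = 0.6, adjusted 0.6), and it was -0.10 without knockdown replicate 1. Within the knockdown-labelled group the share ran wider than counting error: its Wilson 95% interval was 13.9% to 21.8% in library 1 and 3.72% to 7.60% in library 3. These intervals cover counting error only. Rescue libraries 1, 2 and 3 summed to 116, 132 and 76.7 CPM over the 3 genes, against 48.5, 47.8 and 57.1 CPM in knockdown-labelled libraries and 60.4, 56.3 and 76.8 CPM in control libraries. The UGT2B total of rescue library 3 was thus within the control range, although most of it was UGT2B28.

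**Figure D2:**
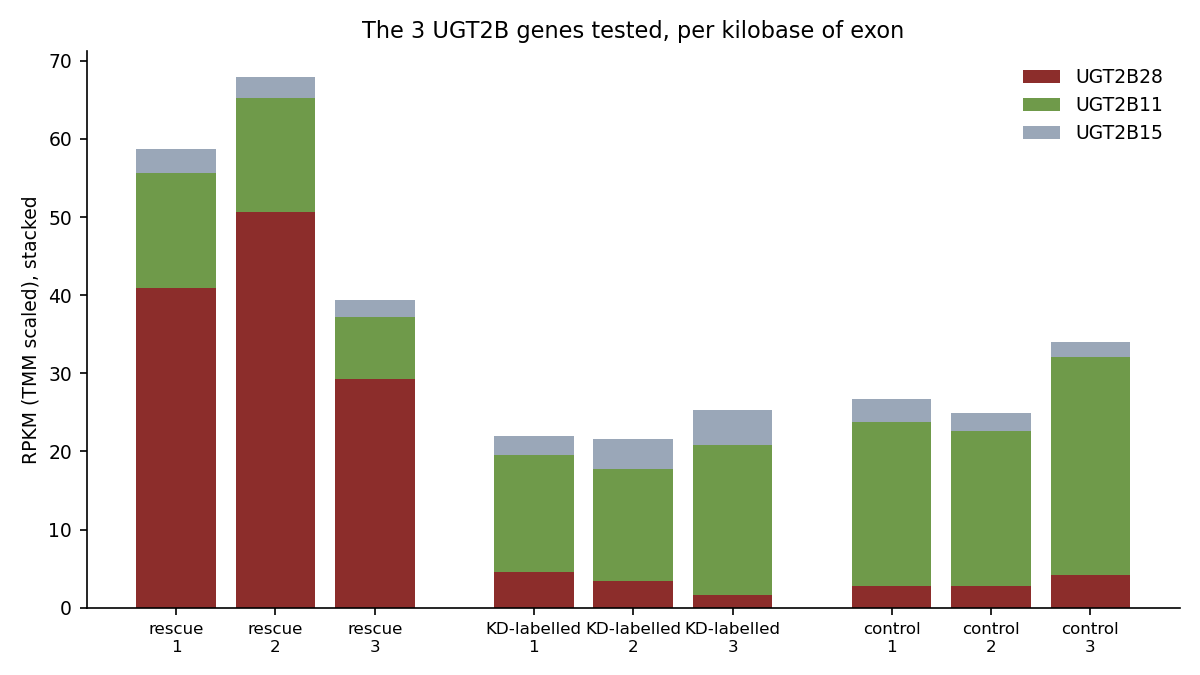
Stacked RPKM (TMM scaled, linear axis) of UGT2B28, UGT2B11 and UGT2B15 in each rescue, knockdown-labelled (KD-labelled) and control library. UGT2B28 forms the largest part of each rescue bar and UGT2B11 the largest part of each other bar.

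Of the other UGT genes looked up, 18 in number, 7 had any count and none had enough to be tested. UGT2B10 had at most 3 counts in a library, UGT1A6, UGT2A3 and UGT3A2 at most 2, and UGT2B4, UGT2B7 and UGT3A1 at most 1. UGT1A1, UGT1A3, UGT1A4, UGT1A5, UGT1A7, UGT1A8, UGT1A9, UGT1A10, UGT2A1, UGT2A2 and UGT2B17 had 0 counts in all 9 libraries, which allows up to 0.211 to 0.369 CPM per library (3 counts). The UGT1A genes share their later exons, and reads there may be counted for none of them.

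UGT8, the ceramide galactosyltransferase gene (chromosome 4, 114598455 to 114678224), was low throughout, with 16 to 57 raw counts in a library. It stood at 2.44, 2.27 and 1.59 CPM in rescue libraries 1, 2 and 3, against 4.98, 3.35 and 6.20 CPM in knockdown-labelled and 4.08, 5.41 and 4.31 CPM in control libraries. Each rescue value lay below all 6 others, and the knockdown-labelled and control values overlapped.

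UGDH, the UDP-glucose dehydrogenase gene (chromosome 4, 39498755 to 39528311), varied least in proportion over the 9 libraries after TMM scaling. It stood at 123, 124 and 112 CPM in rescue, 121, 132 and 140 CPM in knockdown-labelled and 137, 125 and 154 CPM in control libraries. The rescue values lay just below all controls and overlapped with the knockdown-labelled ones. With library size alone UGDH ran from 96.2 to 160 CPM and UGP2 from 41.6 to 59.7 CPM, so that UGP2 varied least. Rescue libraries 1 and 2 (134 CPM each) then lay above control library 2 (132 CPM) for UGDH. The antisense gene UGDH-AS1 overlaps 293 exon bases of UGDH and had 28 to 87 counts, against 901 to 1867 for UGDH; without knowledge of strand their shared reads cannot be told apart.

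UGP2, the UDP-glucose pyrophosphorylase gene (chromosome 2, 63840940 to 63891562), was highest in the knockdown-labelled libraries. Its values were 42.2, 43.4 and 42.3 CPM in rescue libraries, 66.6, 72.6 and 53.6 CPM in knockdown-labelled libraries 1, 2 and 3, and 43.3, 39.4 and 46.5 CPM in control libraries. All knockdown-labelled values lay above the 6 others, library 3 least, and rescue and control overlapped. Within the knockdown-labelled group the order of UGP2 was that of the mitochondrial share given above. In control libraries the order was the reverse, and in rescue libraries the orders differed. With library size alone, UGP2 stood at 52.8, 58.1 and 59.7 CPM in knockdown-labelled libraries 1, 2 and 3. The order in that group thus rested on the scaling. Any part of the mitochondrial share in the result was not tested.

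SLC35D1, the UDP-glucuronic acid carrier gene (chromosome 1, 66999332 to 67054099), stood at 6.66, 8.75 and 5.46 CPM in rescue, 3.63, 5.03 and 8.92 CPM in knockdown-labelled and 6.17, 5.92 and 6.46 CPM in control libraries. The groups overlapped, and the spread was widest in the knockdown-labelled group. Knockdown-labelled library 3 had the highest value of its group for UGT2B11, UGT2B15, UGT8, UGDH and SLC35D1 and the lowest for UGT2B28 and UGP2. Rescue library 3 had the lowest value of its group for every member other than UGP2.

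Rescue and knockdown-labelled libraries differ by design in the UGT2B28 overexpression and in the drug. UGT2B28 rose, and UGT8 and UGP2 fell. Over all genes 9.83% of 16796 passed at an adjusted p under 0.05 (edgeR quasi-likelihood test, Benjamini-Hochberg), 4.44% higher and 5.39% lower in rescue. Of the 7 members 3 passed, 1 higher and 2 lower, and the 1 higher was the gene overexpressed by design. The log2 fold change of UGT2B28 was 3.66 (SE 0.332, edgeR adjusted p = 0.00126). UGT8 had a log2 fold change of -1.18 (SE 0.324, 95% interval -1.90 to -0.47, edgeR adjusted p = 0.0443), and UGP2 one of -0.59 (SE 0.131, interval -0.88 to -0.30, edgeR adjusted p = 0.0227). The groups did not overlap for these 3 genes, as for 28.6% of all genes tested (14.6% higher and 14% lower in rescue). UGT2B11 (-0.38, interval -0.89 to 0.14), UGT2B15 (-0.44, -1.07 to 0.19), UGDH (-0.13, -0.40 to 0.13) and SLC35D1 (0.24, -0.46 to 0.94) did not pass.

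The UGT8 and UGP2 calls depended on single libraries, on the scaling and on which groups entered the fit, as the plot of adjusted p by setting shows. With 1 library left out at a time, UGT8 passed in 1 of 9 fits, that without knockdown replicate 3 (adjusted p = 0.0405), and failed in the others (0.0626 to 0.138). UGP2 passed in 4, without any 1 of the controls (0.0373 to 0.0469) or without knockdown replicate 3 (2.56e-05), and failed without each of the other 5 libraries (0.0677 to 0.0947). With only the 2 groups compared in the fit, neither passed (adjusted p = 0.121 for UGT8 and 0.0807 for UGP2), and with limma-voom UGT8 did not (0.0584). With library size alone as the scaling, the median of all genes stood at 0.24, and neither gene passed (adjusted p = 0.143 for UGT8 and 0.142 for UGP2); relative to that median their log2 fold changes were -1.21 and -0.56, and that of UGDH, 0.10 as fitted, was -0.14. Set against knockdown library 3 alone, a comparison added after its values were seen, UGP2 stood at -0.31 (adjusted p = 0.133) and UGT8 at -1.52 (0.0126), on the assumption that the lone library varies like the other groups.

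**Figure D3:**
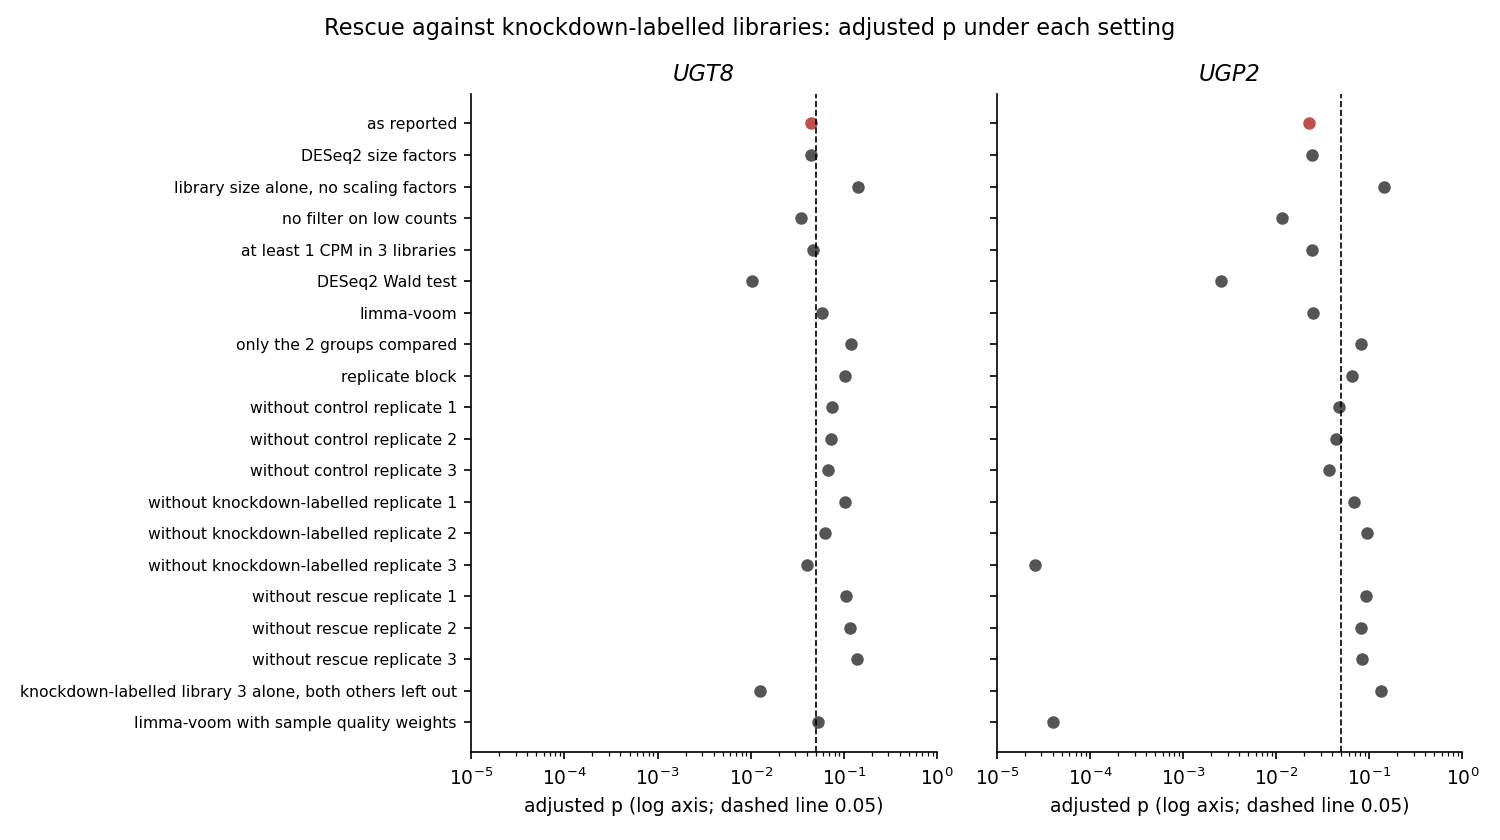
Adjusted p (log axis) of UGT8 and UGP2 for rescue against knockdown-labelled libraries as reported (red) and under each alternative (grey), with a dashed line at 0.05. For UGT8, 8 of the 9 fits without 1 library lie right of the line, and for UGP2 5 of 9 do.

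Rescue libraries were next set against those of cells titled NT. UGT2B28, which rescue cells are labelled as overexpressing, rose and no other member passed. So 1 of 7 members passed, where 0.149% of all genes did, and that 1 was the gene overexpressed by design. This count is no result about the members. Gene counts cannot tell mRNA of an introduced UGT2B28 from the cells' own. The log2 fold change of UGT2B28 was 3.61 (SE 0.329, edgeR adjusted p = 0.00267), and the adjusted p was 0.0599 without control replicate 1. UGT2B11 stood at -0.87 (interval -1.39 to -0.36, edgeR adjusted p = 0.186) and UGT8 at -1.12 (interval -1.83 to -0.40, edgeR adjusted p = 0.235). These genes and UGDH (-0.21, -0.48 to 0.05) were lower in each rescue library than in each control, though with library size alone UGDH overlapped. Groups did not overlap for 26.4% of all genes tested, and 13.6% were lower in rescue in this way. UGT2B11 passed with the DESeq2 Wald test (adjusted p = 0.0383), with no filter on low counts (0.000121), with only the 2 groups compared (0.0149) and without knockdown replicate 3 (0.00484), and UGT8 with only the 2 groups compared (0.0486) and without knockdown replicate 3 (0.0386). UGP2 stood at -0.01 (interval -0.30 to 0.28). UGT2B15 (0.12, -0.52 to 0.76) and SLC35D1 (0.17, -0.53 to 0.87) had wide intervals.

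Knockdown-labelled libraries were last set against the control ones, to see which of these mRNAs differed between them. No member passed, and of all genes tested 0.00595% did; 3209 genes had an unadjusted p under 0.05, UGP2 among the members. UGT2B28 stood at -0.04 (interval -0.81 to 0.72, edgeR adjusted p = 0.957). With library size alone UGT2B28 stood at -0.33 (edgeR adjusted p = 0.610), where the median of all genes was -0.21. UGP2 had a log2 fold change of 0.58 (interval 0.29 to 0.87, edgeR adjusted p = 0.0802) and UGT2B11 one of -0.50 (interval -1.01 to 0.01, edgeR adjusted p = 0.273). For both genes the groups did not overlap, as for 21.2% of all genes tested (11% higher and 10.2% lower in knockdown-labelled libraries). With library size alone the groups of UGT2B11 overlapped. UGP2 passed with the DESeq2 Wald test (adjusted p = 0.00962), with no filter on low counts (0.0367) and without knockdown replicate 3 (5.49e-05), and UGT2B11 passed without knockdown replicate 3 (0.0185). UGT2B15 (0.56, -0.08 to 1.20), UGT8 (0.07, -0.62 to 0.76), UGDH (-0.08, -0.34 to 0.18) and SLC35D1 (-0.07, -0.79 to 0.64) had intervals on both sides of 0. The 3 comparisons share libraries in pairs, so their values are not independent.

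**Figure D4:**
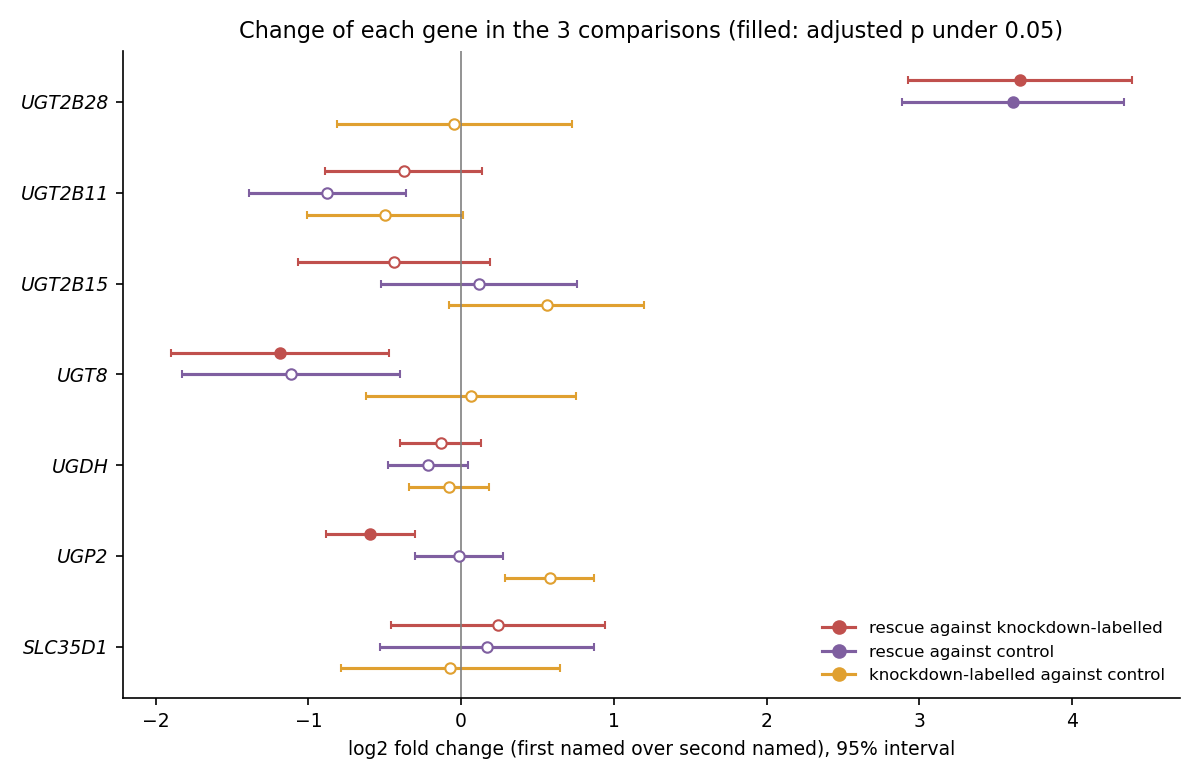
Log2 fold change of each of the 7 genes with its 95% interval for rescue against knockdown-labelled, rescue against control and knockdown-labelled against control libraries; filled points have an adjusted p under 0.05. The filled points are UGT2B28 at 3.66 and 3.61, UGT8 at -1.18 and UGP2 at -0.59.

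Around the members, the genes that lead from glucose to UDP-glucose went both ways. Of the 8 tested in that list, which includes UGP2, 2 rose and 1 fell in rescue against knockdown-labelled libraries (median log2 fold change 0.10, against -0.0023 over all genes, of which 4.44% rose and 5.39% fell), 1 rose against control (median 0.04, where 0.143% of all genes rose), and none passed between knockdown-labelled and control libraries (median 0.10, against 0.02 over all genes). HK2, a hexokinase, stood at 187, 233 and 216 CPM in rescue, 149, 152 and 114 CPM in knockdown-labelled and 119.7, 121 and 162 CPM in control libraries. It rose against knockdown-labelled libraries (log2 fold change 0.62, edgeR adjusted p = 0.0423). PGM2, which encodes a phosphopentomutase with phosphoglucomutase activity, stood at 41.0, 41.2 and 40.9 CPM in rescue, 29.9, 30.5 and 33.2 CPM in knockdown-labelled and 24.3, 25.2 and 25.0 CPM in control libraries. None of its 3 groups overlapped. Of all genes tested, 28.6% did not overlap between rescue and knockdown-labelled, 26.4% between rescue and control and 21.2% between knockdown-labelled and control libraries. PGM2 rose in rescue against knockdown-labelled (0.39, edgeR adjusted p = 0.0457) and against control (0.72, edgeR adjusted p = 0.0381). The PGM2 calls each failed in 8 of the 9 fits without 1 library, and that of HK2 in 7. PGM3, a phosphomutase of N-acetylglucosamine phosphate, averaged 262 CPM in rescue, 299 CPM in knockdown-labelled and 269 CPM in control libraries, and did not pass.

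Among the other enzymes that use UDP-glucuronic acid or UDP-glucose, 1 of 17 tested rose in rescue against knockdown-labelled libraries and none fell (median -0.04), and none passed in the other comparisons. With 4.44% of all genes higher in rescue, this count is near the background and is no result about the list. The gene was CHPF2, a chondroitin polymerising factor, at 42.8, 37.7 and 45.3 CPM in rescue, 25.8, 25.7 and 21.5 CPM in knockdown-labelled and 30.0, 30.6 and 38.9 CPM in control libraries (log2 fold change 0.78, edgeR adjusted p = 0.0140). Its adjusted p reached 0.0662 when 1 library was left out, and the call failed in 3 of 9 such fits. CHPF and GYS1, the muscle-type glycogen synthase gene, were the most abundant of this list and did not pass.

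Of 12 tested carriers of other nucleotide sugars, 1 fell in rescue against knockdown-labelled libraries and none rose (median -0.21). With 5.39% of all genes lower in rescue, this count too is near the background. SLC35A1, the CMP-sialic acid carrier gene, stood at 5.67, 6.82 and 6.86 CPM in rescue, 17.9, 15.5 and 9.14 CPM in knockdown-labelled and 7.45, 9.90 and 7.49 CPM in control libraries (log2 fold change -1.14, edgeR adjusted p = 0.0246). After TMM scaling knockdown-labelled libraries 1 and 2 were the highest, as for UGP2, whose order in that group changed with library size alone. The SLC35A1 call failed in 5 of the 9 fits without 1 library. SLC35B1 and SLC35A4 were the most abundant carriers and did not pass.

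None of the 5 tested genes of glucuronide export and hydrolysis passed in any comparison. Their medians were 0.35, 0.23 and -0.11 for rescue against knockdown-labelled, rescue against control and knockdown-labelled against control libraries. Over all genes tested the medians were -0.0023, -0.0066 and 0.02 in the same order, and 9.83%, 0.149% and 0.00595% passed. The export pump genes ABCC1 and ABCC5 averaged 166 and 113 CPM in rescue, 128 and 88.7 CPM in knockdown-labelled and 134 and 95.6 CPM in control libraries. None of the 7 tested transcription factors known to act on UGT genes passed either. Both counts are near the shares over all genes and are no result about the lists. FOXA1, a pioneer factor of prostate cells, averaged 768 ± 45.7 CPM in rescue, 742 ± 63.8 in knockdown-labelled and 758 ± 23.2 in control libraries (SD, n = 3).

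**Figure D5:**
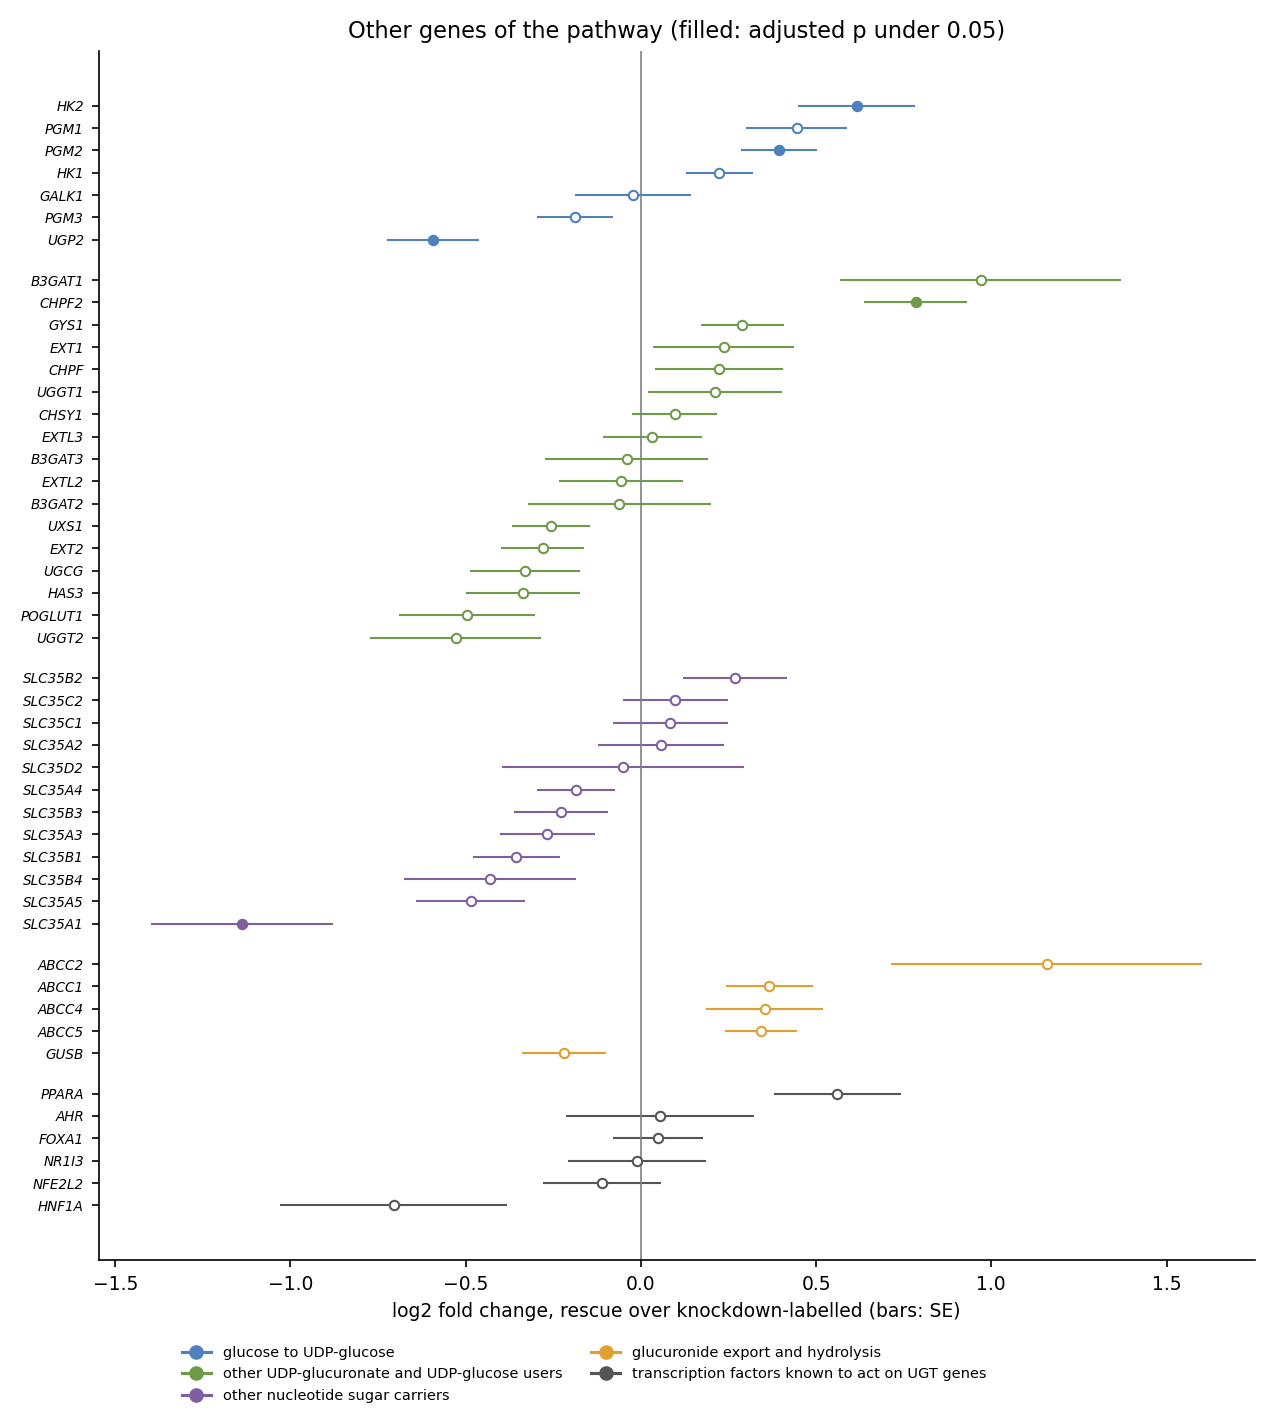
Log2 fold change with SE for rescue against knockdown-labelled libraries of genes from 5 lists around the pathway; filled points have an adjusted p under 0.05. HK2, PGM2 and CHPF2 are filled above 0, UGP2 and SLC35A1 below.

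Across the 9 libraries, the protein-coding genes most like each member in log2 CPM were found among 10277 genes with a mean of at least 5 CPM, and are given as a description. UGT2B28 was most like LRP10, RNF41 and MERTK (Pearson's r 0.977, 0.976 and 0.971). UGP2 was most like HSD17B12, CCNB1IP1 and LEPROTL1 (0.997, 0.994 and 0.993), UGT8 like GUCY1A1, C19orf54 and CSTF1 (0.970, 0.962 and 0.959) and SLC35D1 like N4BP2L2 and FNDC3A, among others (0.966 and 0.965). UGT2B15 was most like CHUK, TMX3 and BMP2K (0.963, 0.962 and 0.941), UGT2B11 like ITM2C, ACBD6 and ARHGEF19 (0.956, 0.930 and 0.930) and UGDH like ANAPC4, EEF1AKMT3 and CCDC125 (0.934, 0.920 and 0.919). These values share the libraries and their scaling.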

How the data were processed

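Total RNA from 9 LAPC4 libraries was sequenced. Reads were handled with FastQC, cutadapt, STAR, HTSeq and hg38, per the submitters' processing notes; their versions and settings, the annotation and any use of strand are not given in the sources used. Each deposited file holds raw counts per gene. Rows that name no gene took 55.9% to 61.7% of a file's counts and were left out.

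All 9 libraries entered 1 edgeR 4.0.16 fit (R 4.3.3; quasi-likelihood test, TMM scaling, filterByExpr with a minimum count of 10, 6 residual degrees of freedom), tested on simulated counts. P-values were adjusted over all genes tested. An SE is the log2 fold change over the root of its F. Intervals are at 95% and use the total degrees of freedom of the fit, which add prior ones to the 6 residual ones. RPKM used exon unions of GENCODE 29 (GRCh38). Shares were compared by exact permutation (scipy 1.17.1).

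Alternatives were DESeq2 1.42.0 size factors and Wald test, library size alone, no filter, 1 CPM in 3 libraries, limma-voom (limma 3.58.1), 2-group fits, a replicate block, the longest transcript's length, and leaving out each library. Knockdown library 3 alone and voom with quality weights were chosen after seeing the data.

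The members and gene lists were chosen with earlier results of these data known. Named were the members, every listed gene that passed, up to 2 further tested genes of highest mean CPM per list, other UGT genes with counts, and the 3 protein-coding genes most correlated with each member; a few genes under this rule are not reported here. TMPRSS2, a luminal marker, passed for rescue against knockdown-labelled libraries (log2 fold change 0.64, edgeR adjusted p = 0.0402), but failed in 7 of 9 fits without 1 library (adjusted p up to 0.127).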

Additional observations from a re-analysis of the deposited data

How the results depend on the processing

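UGT2B28 in rescue against knockdown-labelled libraries kept its direction and its call in every alternative run. Against control it kept both in every alternative other than leaving out control replicate 1, with log2 fold changes of 3.42 to 3.85 when 1 library was left out. The numbers of genes passing moved most. For rescue against knockdown-labelled, rescue against control and knockdown-labelled against control libraries they were 1651, 25 and 1 as reported, 2636, 401 and 1045 without a filter, 2702, 326 and 1009 with the DESeq2 Wald test, 7, 962 and 0 with only the 2 groups compared, 3619, 977 and 2115 with knockdown library 3 alone, and 6999, 1590 and 6527 with quality weights, both chosen after seeing the data. Library size alone gave 153 between knockdown-labelled and control libraries, and limma-voom gave 13 for rescue against control. Leaving out 1 library gave 134 to 6745, 1 to 1276 and 0 to 5691 genes, with the highest between knockdown-labelled and control libraries without knockdown replicate 3. Library size alone turned the split for rescue against knockdown-labelled libraries to 1327 higher and 230 lower, against 745 higher and 906 lower as reported.

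The replicate block gave 442, 4 and 0 genes, with adjusted p = 0.104 for UGT8 and 0.0649 for UGP2 in rescue against knockdown-labelled libraries. Same-numbered libraries deviated together at -0.355 to 0.0784 (Pearson's r), so the numbers were not taken to pair them.

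Among log2 fold changes near 0, library size alone turned those of UGT8 (-0.12) and HK2 (-0.21) in knockdown-labelled against control libraries, UGDH in rescue against knockdown-labelled (0.10) and UGP2 in rescue against control (0.010). That scaling moved the median of all genes to -0.21, 0.24 and 0.02 in these comparisons, and relative to it the values were 0.09, 0.00072, -0.14 and -0.0071, with none turned. Knockdown library 3 alone turned SLC35D1 (0.50) and HK2 (-0.27) against control, and SLC35D1 in rescue against it (-0.33). Quality weights turned UGT2B28 (0.26), UGT8 (-0.28) and TMPRSS2 (0.11) in knockdown-labelled against control libraries, and UGP2 in rescue against control (0.017). Leaving out 1 library gave ranges across 0 for knockdown-labelled against control libraries of UGT2B28 (-0.36 to 0.25), UGT8 (-0.16 to 0.28), UGDH (-0.15 to 0.0011), SLC35D1 (-0.49 to 0.17), HK2 (-0.032 to 0.21) and TMPRSS2 (-0.16 to 0.13), and for rescue against control of UGT2B15 (-0.040 to 0.30), UGP2 (-0.078 to 0.041) and SLC35D1 (-0.025 to 0.32). The difference in UGT2B28 share between knockdown-labelled and control libraries ran from -0.10 percentage points without knockdown replicate 1 to 5.98 without knockdown replicate 3. The causes were not tested.

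With the longest transcript as length, UGDH stood at 37.2, 40.8 and 43.2 RPKM and UGP2 at 9.69, 14.6 and 9.79 RPKM in rescue, knockdown-labelled and control libraries. With library size alone, UGDH stood at 31.6 RPKM in rescue and 29.5 in knockdown-labelled libraries, UGP2 at 7.01 in rescue and SLC35D1 at 1.05 in control. UGT8 rested on 16 to 57 counts a library, which limits its precision.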
